A study of Mus musculus with 15 samples.

Results

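The RNA of 5 genes of DNA methylation was followed from the newborn to the adult cerebellum. The genes were Dnmt1, Dnmt3a and Dnmt3b, which encode DNA methyltransferases, and Uhrf1 and Uhrf2, which encode ring finger proteins that bind methylated DNA. The genes were chosen by name from the annotation of the array, and all 5 were measured among the 19500 genes with a single symbol. Each had 1 probe set, so none had a second one to compare with. All mice carried the Tg(Pcp2-L10a-Egfp) transgene, in which the promoter of Pcp2, a gene of Purkinje cells, drives a ribosomal protein fused to a fluorescent tag. Tagged ribosomes were captured on beads from pooled cerebella, and the RNA they held was hybridised to 15 Affymetrix arrays. There were 3 for each age, from the day of birth (P0) through P7, P15 and P21 to P56, where the number is the postnatal day. The labels used here name no strain or sex. They also do not say if arrays of the same age had different pools behind them, so p-values may measure only technical spread.

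DNA methylation in mammals is laid down mainly on cytosines that precede guanine. When DNA is copied, the new strand lacks the mark, UHRF1 binds such half-marked sites and the histone tails beside them, and DNMT1 restores the missing methyl group. DNMT3A and DNMT3B add methyl groups to sites that had none. DNMT3A is the main enzyme of this kind in maturing neurons, where it also marks cytosines outside the guanine context. UHRF2 resembles UHRF1 in its domains but does not replace it in maintenance, and it is known as a reader of hydroxymethylated DNA.

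The values are log2 signals, and an array's lower quartile (5.86 to 6.01) is used here as the level under which a gene is not shown to be above background. The array medians were 7.77 to 7.93 from P0 to P21 and 7.59 to 7.60 at P56. Purkinje cell genes, 12 measured of a list of 14, averaged 9.30 to 9.37 in the P0 arrays and 12.69 to 12.89 at all later ages, and the marker Ppp1r17 was under the lower quartile at P0. Not all of these genes were low at P0, since Pcp4 was already at 13.05 and Foxp2 was higher at P0 (11.27) than at P7 (11.02). The capture of Purkinje cell RNA and the maturation of these cells cannot be told apart at P0, and P7 serves below as a second starting point. Signal of other cells was present at each age. In such a mixture, fewer cells of a type and less RNA per cell cannot be told apart.

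Start-site windows of Dnmt1, Uhrf1 and Uhrf2 are shown. The first pair act together in maintenance, and the last pair are close relatives that changed at different ages. RefSeq (GRCm38.p6) gave 10 start-site windows for the 5 genes, each 300 bases long with 250 before and 50 after the start. The windows were searched for TTTCGCGC and TTTGGCGC on both strands, letters known as a core site of E2F factors, which drive genes of DNA replication. This choice was made with the windows in view. TTTCGCGC is held by 0.323% of 32851 windows and TTTGGCGC by 0.514%. Among windows of these 5 genes, 2 held a match. The 250 bases before the start follow, with the match in capitals.
Dnmt1 (chr9:20952624-20952873, minus strand): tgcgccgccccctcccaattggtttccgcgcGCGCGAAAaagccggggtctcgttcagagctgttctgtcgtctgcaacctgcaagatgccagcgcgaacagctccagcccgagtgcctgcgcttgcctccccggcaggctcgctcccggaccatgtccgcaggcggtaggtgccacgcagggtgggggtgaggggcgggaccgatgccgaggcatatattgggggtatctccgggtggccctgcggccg
Uhrf1 (chr17:56304063-56304312, plus strand): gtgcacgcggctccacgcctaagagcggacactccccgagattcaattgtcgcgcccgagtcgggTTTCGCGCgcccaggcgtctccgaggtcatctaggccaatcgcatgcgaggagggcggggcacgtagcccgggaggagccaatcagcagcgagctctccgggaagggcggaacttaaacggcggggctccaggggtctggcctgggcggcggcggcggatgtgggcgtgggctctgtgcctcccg
Uhrf2 (chr19:30030263-30030512, plus strand): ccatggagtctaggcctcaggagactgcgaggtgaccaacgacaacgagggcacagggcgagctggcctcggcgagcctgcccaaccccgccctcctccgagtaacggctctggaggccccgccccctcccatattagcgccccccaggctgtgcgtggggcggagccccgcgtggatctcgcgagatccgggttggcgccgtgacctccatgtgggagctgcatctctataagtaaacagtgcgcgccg
In the Dnmt1 window the letters GCGCGAAA, the other strand of TTTCGCGC, begin 219 bases before the start. TTTGGCGC lies 34 bases after it, outside the stretch printed. This start is the furthest downstream of those listed for Dnmt1, and both distances count from it alone. The stretch printed therefore lies inside the gene as read from the other starts. In the Uhrf1 window TTTCGCGC begins 185 bases before the start. The Uhrf2 window held neither word, as did the windows of Dnmt3a and Dnmt3b and the other windows of Dnmt1 and Uhrf1. The Dnmt1 and Uhrf1 windows shown held 33 CG pairs each and the Uhrf2 window 28, against a median of 7 over all windows. For Dnmt1 and Uhrf1 the window shown is the one with a match, and both searched words hold CG themselves. The windows not shown held 12 and 2 CG pairs for Dnmt1 and 12 for Uhrf1. A match is a description of letters, and binding was not measured.

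All 5 genes differed between ages by limma's moderated F-test (adjusted p from 8.87e-11 for Dnmt1 to 4.51e-04 for Dnmt3b), as did 81.6% of all probe sets. All 5 were lower at P56 than at P0, a direction called for 35.3% of probe sets, with a median change of −0.996 against 0.085 over all probe sets. All 5 were also lower than at P0 at P15 and at P21, against 30.5% and 29.5% of probe sets. They reached the lower level at different ages. Dnmt1 and Uhrf2 dropped most before P7, while Uhrf1 and Dnmt3a dropped most between P7 and P15. Between P7 and P56, Dnmt1, Dnmt3a and Uhrf1 fell, a direction called for 34.2% of probe sets, and Uhrf2 and Dnmt3b were not called. At P21, Dnmt3a and Uhrf1 were lower than at P7 (13.2% of probe sets were). From P15 to P56, Dnmt1 and Dnmt3a fell (32.9% of probe sets did) and Uhrf2 rose by 0.31 (23.1% did).

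**Figure D1:**
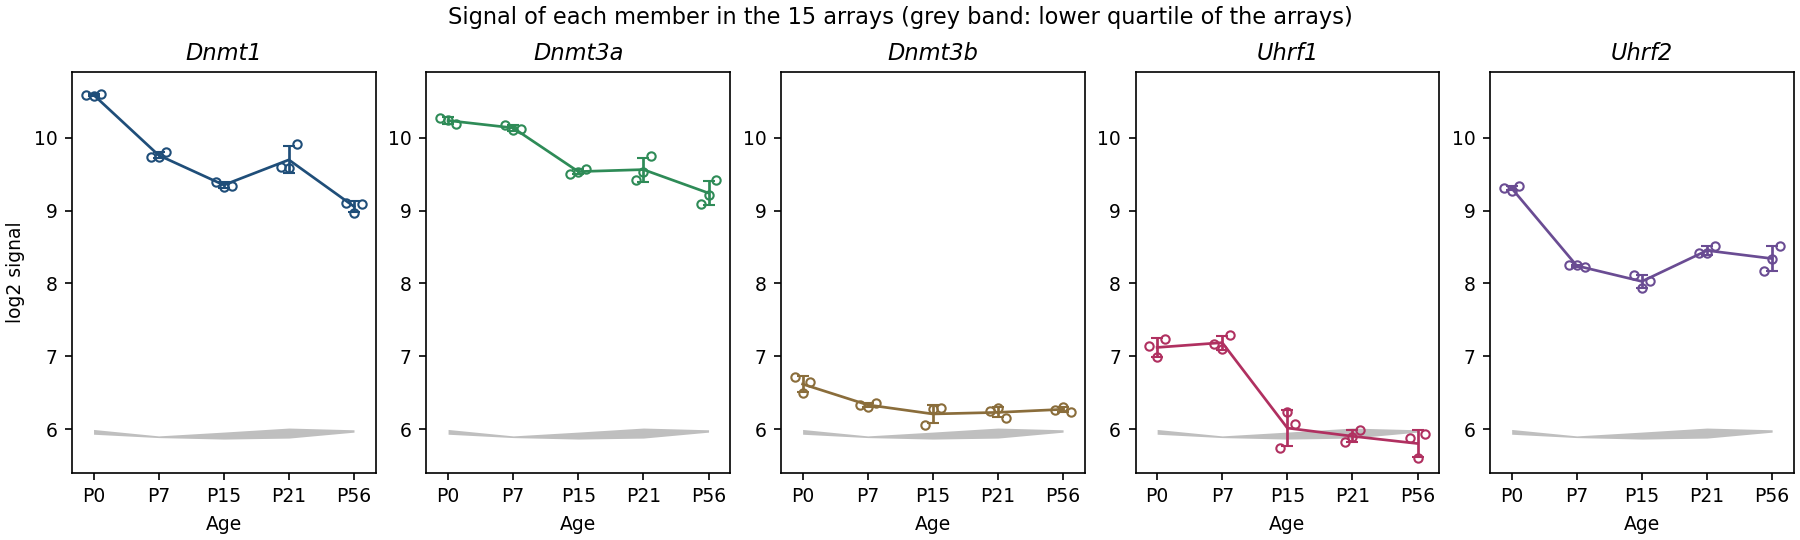
Each panel plots the log2 signal of a gene (y axis) at the 5 ages (x axis, evenly spaced), with open circles for the 3 arrays of an age, and the line and bars for their mean and SD. The grey band spans the lower quartiles of the arrays of each age. Dnmt1 and Uhrf2 are highest at P0, Uhrf1 holds its level until P7 and then lies at or near the band, and Dnmt3b stays close above it.

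Dnmt1 copies methylation to the new strand after replication, and its RNA is also present in neurons that no longer divide. Its signal was 10.58, 10.58 and 10.60 in the P0 arrays and 9.74, 9.74 and 9.80 in the P7 arrays. It was 9.39, 9.33 and 9.34 at P15, then 9.60, 9.58 and 9.91 at P21, and 9.11, 8.96 and 9.10 at P56. The P0 arrays were the highest and the P56 arrays the lowest of the series, and neither group overlapped any other age.

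Dnmt1 fell by 1.53 from P0 to P56, which is 2.89-fold (SE 0.08, limma adjusted p 7.30e-12, n = 3 arrays an age). More than that of any other step, 0.83 of it came between P0 and P7 (adjusted p 4.83e-08), when 28.5% of probe sets were called lower. It fell by 0.41 from P7 to P15 (adjusted p 0.00109), rose by 0.35 from P15 to P21 (adjusted p 0.00550) and fell by 0.64 from P21 to P56 (adjusted p 2.38e-06). The order of the ages was P0, P7, P21, P15 and P56, and of neighbours in this order P7 and P21 did not differ beyond their spread (difference 0.06, 95% interval −0.10 to 0.23). The last pair, P15 and P56, differed by 0.30 (adjusted p 0.00433), a call that ended with array medians set to 0 (0.10) and under quantile normalization (0.06).

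Markers of other cells also moved from P15 to P21. Replicate 3 of P21 held the highest Dnmt1 value of that age, and without it the rise was 0.24 (adjusted p 0.0257). The same array had the highest mean over 13 oligodendrocyte lineage genes, 10.19, against 9.91 and 9.94 in the other P21 arrays and 9.70 to 9.74 at P15. It was also the highest P21 array for the mature granule cell (10.999), astrocyte (10.32), endothelial (7.02), microglial (6.89), meningeal (7.71) and proliferation (6.79) lists. Over all 15 arrays, Dnmt1 correlated with the oligodendrocyte list at r = −0.47. Of these 13 genes, 7 rose and 0 fell from P15 to P21. At P56 the list averaged 8.91 to 8.96. Mbp and Mobp, defining markers of this lineage, were above the lower quartile at every age. From P15 to P21 neither was called (Mbp 0.14, limma adjusted p 0.281, and Mobp −0.0045, adjusted p 0.986). The part of these cells in the Dnmt1 values was not tested.

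Uhrf1 brings DNMT1 to replicated DNA. Its signal was 7.14, 6.99 and 7.24 at P0 and 7.17, 7.10 and 7.29 at P7. It was 5.74, 6.23 and 6.07 at P15, then 5.83, 5.89 and 5.99 at P21, and 5.88, 5.60 and 5.93 at P56. The 6 early arrays all lay above the 9 later ones. Of the later arrays, 1 at P15, 2 at P21 and all 3 at P56 were under the lower quartile, so the later levels, and the full size of the fall, are uncertain.

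Uhrf1 fell by 1.17 from P7 to P15, which is 2.25-fold (SE 0.11, adjusted p 1.40e-06). Between P0 and P7 it changed by 0.07 (95% interval −0.18 to 0.31, adjusted p 0.645), and this sign turned (−0.0013) without replicate 2 of P0. From P15 to P21 it changed by −0.11 and from P21 to P56 by −0.10, and neither step was called. The change from P15 to P56 was −0.21 (limma adjusted p 0.126). It was called as a fall under quantile normalization (−0.29) and without replicate 1 of P15 (−0.35). In the order P7, P0, P15, P21 and P56, P0 and P15 were the neighbours that differed (1.11, adjusted p 1.21e-07).

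Uhrf2, the relative of Uhrf1, moved earlier and partly came back. Its signal was 9.32, 9.27 and 9.33 at P0 and 8.26, 8.25 and 8.22 at P7. It was 8.12, 7.94 and 8.03 at P15, then 8.42, 8.42 and 8.52 at P21, and 8.17, 8.34 and 8.52 at P56. The P0 arrays were the highest by a wide margin, the P15 arrays lay below those of every other age, and the P21 and P56 arrays overlapped.

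From P0 to P7, Uhrf2 fell by 1.06, which is 2.09-fold (SE 0.08, adjusted p 1.54e-09). From P7 to P15 it changed by −0.21 (adjusted p 0.0584), and this step was called in 5 of 22 alternative analyses. It then rose by 0.42 from P15 to P21 (adjusted p 0.00115), when 10.5% of probe sets were called higher, and Dnmt1 was the other of the 5 genes to rise. Its order was P0, P21, P56, P7 and P15, and P0 and P21 were the neighbours that differed (0.85, adjusted p 2.74e-08). From P7 to P21 it changed by 0.21 (adjusted p 0.0592), called as a rise in 6 of 22 alternative analyses. From P21 to P56 it changed by −0.11 (adjusted p 0.242), called as a fall without replicate 3 of P56 (−0.20) and as a rise under quantile normalization (0.18). The change from P7 to P56 was 0.10 (95% interval −0.07 to 0.27, adjusted p 0.294), and it was called as a rise with medians set to 0 (0.36), under quantile normalization (0.40) and without replicate 1 of P56 (0.18).

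The intervals of Uhrf1 and Uhrf2 lay apart in the first week, at −0.18 to 0.31 and −1.23 to −0.90, and again from P7 to P56, at −1.63 to −1.14 and −0.07 to 0.27. The difference between the genes was not itself tested. Across the 15 arrays their correlation (Pearson's r 0.48) was the lowest of the 10 pairs among the 5 genes. These arrays share 5 ages, so all such correlations describe a course over age.

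**Figure D2:**
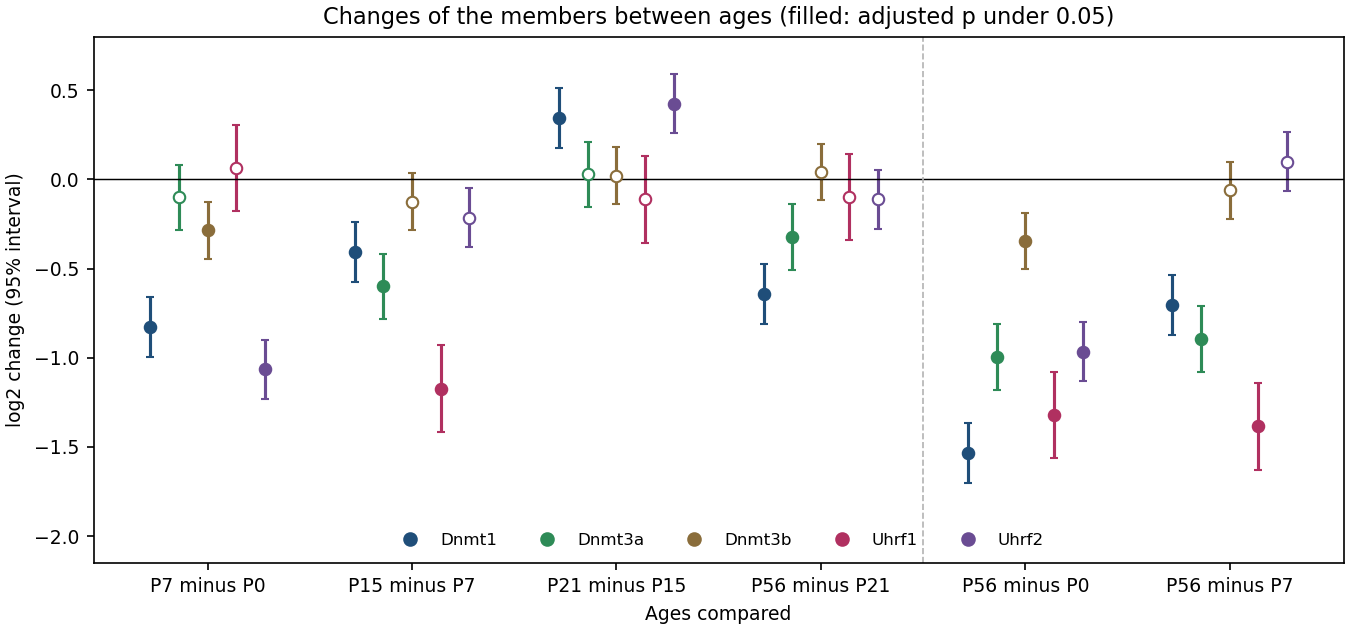
The log2 change of each gene (y axis) is plotted for the 4 steps between neighbouring ages and, right of the dashed line, for P56 against P0 and against P7 (x axis). Points are limma estimates with 95% intervals, and filled points passed an adjusted p of 0.05. Uhrf2 (−1.06) and Dnmt1 (−0.83) lead the falls of the first step, and Uhrf1 (−1.17) and Dnmt3a (−0.60) those of the second.

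Dnmt3a methylates sites that carried no mark. Its signal was 10.28, 10.24 and 10.20 at P0 and 10.18, 10.11 and 10.12 at P7. It was 9.50, 9.54 and 9.57 at P15, then 9.42, 9.53 and 9.74 at P21, and 9.09, 9.21 and 9.42 at P56. The arrays of P0 and P7 lay above all later ones, and those of P15 and P21 overlapped.

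From P7 to P15, Dnmt3a fell by 0.60, which is 1.52-fold (SE 0.09, adjusted p 8.81e-05), one of 3 falls among the 5 genes in a step where 13.6% of probe sets were called lower. Between P0 and P7 it changed by −0.10 (95% interval −0.29 to 0.08, adjusted p 0.333), and quantile normalization called this step (−0.26). Between P15 and P21 it changed by 0.03 (adjusted p 0.895). A further fall of 0.32 from P21 to P56 (adjusted p 0.00444), when 34.3% of probe sets were called lower, ended with medians set to 0 (−0.087) and under quantile normalization (−0.060). Its order was P0, P7, P21, P15 and P56, with a called drop from P7 to P21 (0.57, adjusted p 8.81e-05) and from P15 to P56 (0.29, adjusted p 0.00821), and the latter ended under the same 2 alternatives (−0.099 and −0.067). From P7 to P56 the fall was 0.89 (SE 0.09, adjusted p 1.16e-07).

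Dnmt3b, the other enzyme of new methylation, is known from early embryos. Its signal was low throughout, from 6.06 to 6.72 over the 15 arrays, and no array was under its lower quartile. The P0 arrays were 6.72, 6.50 and 6.64, those of P7 6.33, 6.31 and 6.36, those of P15 6.06, 6.28 and 6.28, those of P21 6.25, 6.29 and 6.15, and those of P56 6.27, 6.31 and 6.24. The P0 arrays lay above all others.

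Dnmt3b fell by 0.29 from P0 to P7 (SE 0.08, adjusted p 0.00296). No pair of the 4 later ages was called, with differences from 0.02 to 0.12. The change of −0.35 from P0 to P56 (adjusted p 4.91e-04) ended with medians set to 0 (−0.023, adjusted p 0.784). The array medians themselves changed by −0.32 from P0 to P56, and setting them to 0 moved the median of all probe sets for P56 minus P0 from 0.085 to 0.41. With medians set to 0, Dnmt3b was called higher at P56 than at P7 (0.20), the opposite sign to the deposited values (−0.06), and also higher than at P15 (0.26) and at P21 (0.28).

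The course of Uhrf1 and Dnmt3a lay close to the mean of a list of proliferation genes. Of 20 proliferation genes, 19 were measured, and 18 of them fell from P7 to P15 while 0 rose, with a median change of −1.22 against 0.008 over all probe sets. Their mean was 8.21 to 8.34 in the P7 arrays and 7.01 to 7.06 in the P15 arrays. Other steps were not flat for this list. From P0 to P7, 5 fell and 2 rose, and from P15 to P21, 7 fell and 0 rose. From P21 to P56, 9 fell and 2 rose, but with medians set to 0, 1 fell and 6 rose. Of the defining markers, Mki67, a protein of cycling nuclei, went from 8.74 at P7 to 5.80 at P21, under the lower quartile, Top2a from 8.50 at P7 to 6.50 at P15, and Ccna2 from 9.80 to 7.59. Of 12 granule cell progenitor genes, 8 fell from P7 to P15 and 1 rose. They averaged 9.46 to 9.52 at P7 and 8.54 to 8.66 at P15. Of their defining markers, Atoh1 (−1.66) and Barhl1 (−0.89) fell from P7 to P15, while Zic1 was not called (0.10, limma adjusted p 0.308). Zic1 was also called higher at P56 than at P7 (0.31) and at P0 (0.29). Atoh1 was under the lower quartile in 2 arrays at P21 and 1 at P56, and Barhl1 and Zic1 in no array.

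Across the 15 arrays, Uhrf1 correlated with the mean of the proliferation list at r = 0.98 and Dnmt3a at 0.95, and with the progenitor list at 0.97 and 0.93. Dnmt1 and Uhrf2 reached 0.78 and 0.53 with proliferation. The pair Dnmt3a and Uhrf1 correlated at 0.94, above 99.4% of the genes set against Dnmt3a, whereas Dnmt1 and Uhrf1 reached 0.75, above 78.1% of the genes set against Dnmt1. How much of the Uhrf1 and Dnmt3a signal came from dividing cells was not tested.

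Dnmt1, Uhrf2 and Dnmt3b, which fell from P0 to P7, did so beside vessel, meningeal and microglial genes. All 13 endothelial and mural genes fell in that step, and their mean was 8.98 to 9.01 in the P0 arrays and 7.07 to 7.12 in those of P7. All 11 measured meningeal genes fell, from 9.20 to 9.26 at P0 to 7.64 to 7.66 at P7, and the defining marker Lum was under the lower quartile in 2 arrays at P0 and in all arrays from P7 on. Of 11 microglial genes, 9 fell and 1 rose, from 8.01 to 8.07 down to 6.65 to 6.73, and Aif1 was under the lower quartile at every age. Uhrf2 correlated with these 3 lists at r = 0.90, 0.93 and 0.95, Dnmt1 at 0.93, 0.92 and 0.92, and Dnmt3b at 0.86, 0.87 and 0.86. Inverse correlations with lists that rose in that step were of similar size. With the Purkinje cell list r was −0.94 for Uhrf2, −0.88 for Dnmt1 and −0.87 for Dnmt3b. With the mature granule cell list it was −0.88, −0.79 and −0.91. The vessel, meningeal and microglial lists were not alone in falling, since of 13 histone mark genes treated below, 9 fell and 3 rose in that step. Dnmt1 correlated with the mean of those genes at 0.97.

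For comparison, 33.6% of all probe sets were called higher in that step. In the same week 11 of 12 Purkinje cell genes rose and 1 fell, with a median of 2.89, and 8 of 11 mature granule cell genes rose while 2 fell (means of 8.47 to 8.50 at P0 and 10.04 to 10.23 at P7, Gabra6 under the lower quartile at P0). Of 12 astrocyte and Bergmann glia genes 3 rose and 8 fell, with means of 10.27 to 10.33 at P0 and 10.25 to 10.28 at P7. Of 13 oligodendrocyte lineage genes 8 rose and 5 fell. The part of these changes in the falls of Dnmt1, Uhrf2 and Dnmt3b was not tested, and the limit given above for P0 applies to them.

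**Figure D3:**
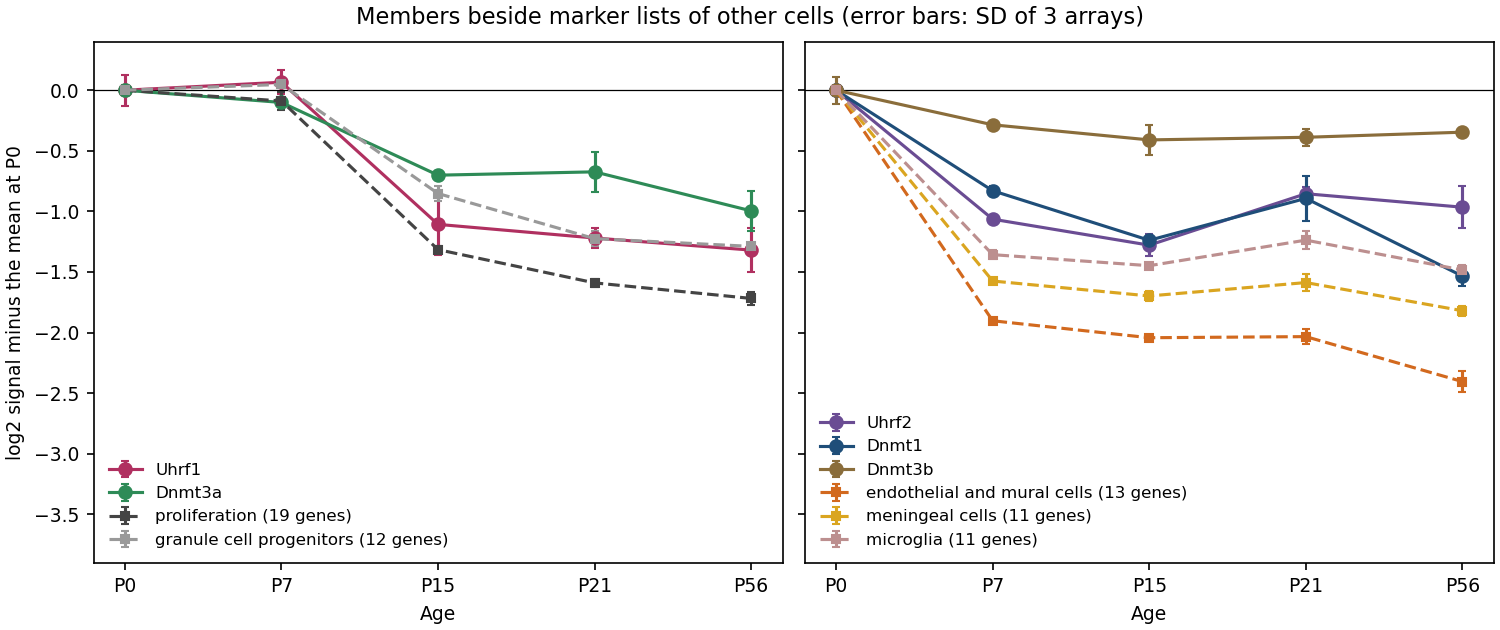
The plots give log2 signal minus the mean at P0 (y axis) by age (x axis, evenly spaced). Solid lines are members and dashed lines the mean of marker lists, with the SD over 3 arrays. On the left, Uhrf1 and Dnmt3a turn down after P7 with the proliferation and progenitor lists, and on the right, Dnmt1, Uhrf2 and Dnmt3b turn down before P7 with endothelial, meningeal and microglial lists.

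Over 16598 protein-coding genes, those most like each member over the 15 arrays were found by Pearson's r. Most like Dnmt1 were Camsap1, which binds the minus ends of microtubules (r = 0.99, 11.01 at P0 and 10.06 at P56), the glutamate receptor gene Grid1 (0.99, 10.92 and 7.76) and Cltc, the clathrin heavy chain (0.99, 12.35 and 11.12). All 3 were higher at P21 than at P15, as Dnmt1 was. Most like Uhrf2 were Arid1a of the BAF chromatin remodeler (0.99, 11.42 at P0 and 10.22 at P7), the ubiquitin ligase gene Mycbp2 (0.98, 11.12 and 9.89) and the zinc finger gene Zkscan16 (0.98, 8.34 and 7.23).

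Most like Uhrf1 were Cacng5 (r = 0.98), which encodes an accessory protein of AMPA receptors, Kif4 (0.98), a kinesin of mitosis, and Mcm5 (0.98), a subunit of the replicative helicase. Cacng5 went from 9.41 at P7 to 8.50 at P15 and Mcm5 from 8.90 to 7.91, while Kif4 lay under the lower quartile in all 15 arrays. Most like Dnmt3a were Nxph4 (0.98), a ligand of neurexins, the phosphatase gene Dusp26 (0.98) and Pole2 (0.97), a subunit of DNA polymerase epsilon, which was under the lower quartile in 6 arrays. Nxph4 went from 10.16 at P7 to 8.26 at P15. Most like Dnmt3b were Galnt4 (0.95), Crispld1 (0.95) and Mmp11 (0.94), which were highest at P0.

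In the lists of related genes that follow, counts may be read against all probe sets, of which 10.4% were called higher from P7 to P15, 40.1% from P0 to P56 and 25.4% from P7 to P56. The partners of maintenance methylation included the clamp PCNA, the remodeler HELLS and enzymes that modify DNMT1 or its substrates. Of 19 listed, 18 were measured. From P7 to P15, 10 fell and 0 rose (median −0.27), and with medians set to 0, 8 fell and 1 rose. From P0 to P56, 12 fell and 3 rose (median −0.41), and with medians set to 0, 7 fell and 5 rose (median −0.091). Pclaf, a clamp-bound protein that UHRF1 ubiquitinates, fell from 8.74 ± 0.01 to 5.83 ± 0.20 (SD, n = 3), a change of −2.91 (SE 0.09, adjusted p 7.92e-15), most of it between P7 and P15 (−1.64). At P56 it was under the lower quartile in 2 of 3 arrays, so the full size of its fall is uncertain.

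Setd7, whose enzyme methylates DNMT1 among other proteins, moved the other way, from 8.78 ± 0.11 at P0 to 11.63 ± 0.06 at P7 and 12.38 ± 0.04 at P56. That is a rise of 3.604 (SE 0.07, adjusted p 3.76e-17). Kdm1a, which encodes a lysine demethylase that acts on DNMT1 and histones, fell by 1.75 (SE 0.06), and Lig1, the DNA ligase of replication, fell by 1.66 (SE 0.08). Pcna itself fell by 0.34 (adjusted p 0.00203) from 11.45, and Usp7, whose enzyme removes ubiquitin from DNMT1 and UHRF1, rose by 0.45 (adjusted p 2.32e-05). These last genes were named after their values were seen.

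DNMT3A, DNMT3B and UHRF1 also read histone tails. Of 14 genes for enzymes that write or erase the marks concerned and for proteins that bind them, 13 were measured, of which 11 fell and 1 rose from P0 to P56 (median −1.16). From P7, 9 fell and 1 rose (median −0.30), and with medians set to 0 or quantile normalization, 6 fell and 2 rose (medians −0.041 and −0.14). Setdb1, a histone methyltransferase of silent chromatin, fell by 2.10 (SE 0.09, adjusted p 3.39e-13) and stepped from 9.69 at P21 to 7.96 at P56. Kmt2a, whose mark repels DNMT3 enzymes, fell by 1.98 and did so between P0 and P7 (−1.86). Cbx5, a heterochromatin protein, fell by 1.54 and Kdm1b, a histone demethylase, by 1.51. Dnmt1 correlated with the mean of this list at r = 0.97.

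The methyl group comes from S-adenosylmethionine. Of 14 genes of its supply, 10 were measured, and 9 rose and 0 fell from P0 to P7 (median 0.70), whereas from P7 to P56, 2 rose and 4 fell (median −0.10, which turned to 0.17 with medians set to 0 and 0.16 under quantile normalization). Mat2b, a subunit of the enzyme that makes this donor, rose by 2.40 (SE 0.10, adjusted p 2.72e-13) from P0 to P56, and Mtrr, which reactivates methionine synthase, by 2.32 (SE 0.10). Adk, which clears adenosine, rose by 1.18 and Ahcyl1 by 0.98. Of the 10 genes, 6 rose and 3 fell from P0 to P56, or 7 and 2 with medians set to 0. From P7 to P56, Mtrr changed by −0.0060 and Adk by −0.12, and neither was called, while Mat2b (0.74) and Ahcyl1 (0.37) rose. The genes that fell from P7 to P56 were Mthfd2 (−1.07), Shmt2 (−1.02), Ahcyl2 (−0.80) and Mtr (−0.61), named after their values were seen.

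Other genes linked to DNA methylation and demethylation went both ways. Of 22 listed, 18 were measured, and 8 rose and 8 fell from P0 to P56, or 10 and 7 with medians set to 0. The largest changes were those of Tet1 (−2.67), Gadd45a (2.57), Gadd45g (2.39) and Tet2 (−2.34), which act in demethylation. From P7 to P15, where Uhrf1, Dnmt3a and Dnmt1 fell, 2 of the 18 rose and 0 fell. Their median change in that step was 0.006, against −0.41 over the 5 genes of methyltransferases and UHRF proteins. The step was named for the falls of these genes, so this contrast follows in part from the choice. From P7 to P56, 5 of the 18 rose and 9 fell (median −0.17), and with medians set to 0, 8 rose and 5 fell.

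**Figure D4:**
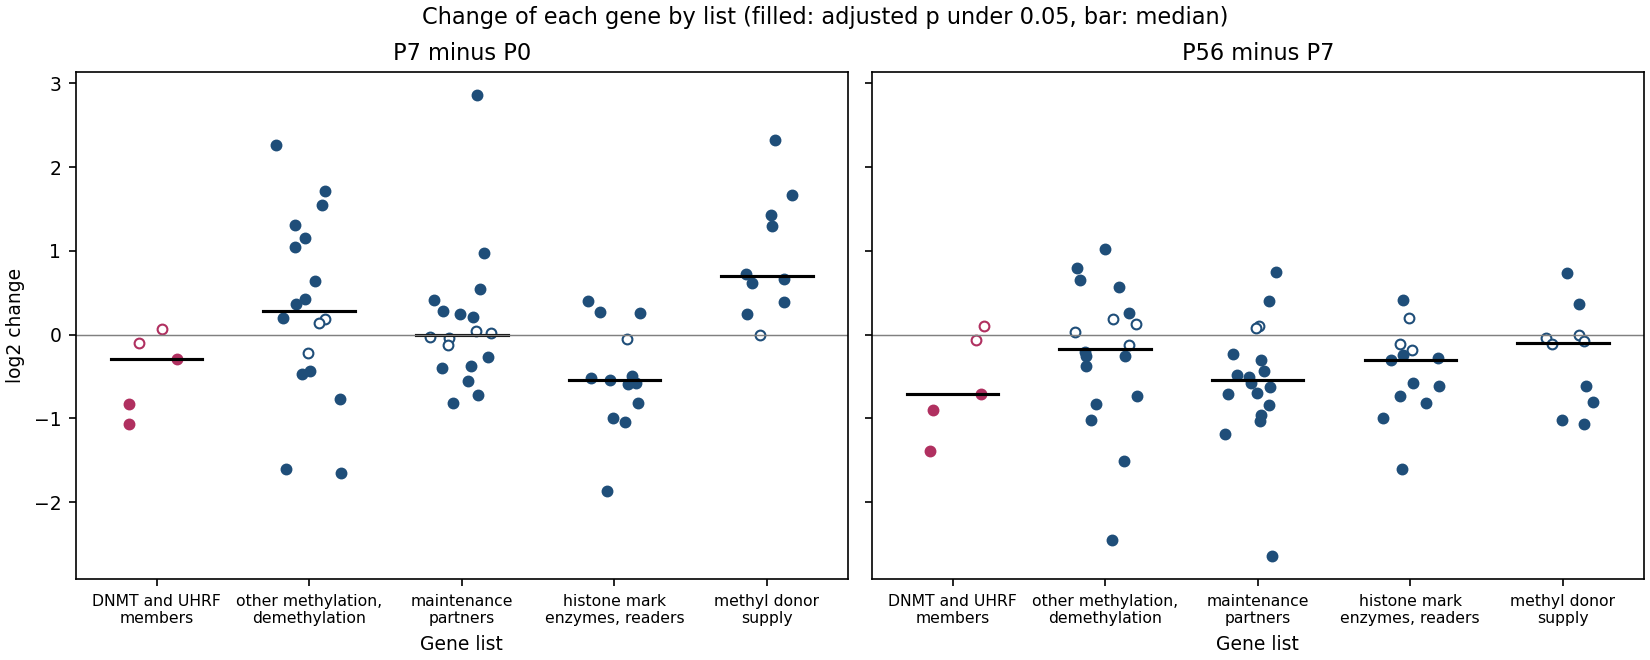
Each point is a gene, with its log2 change (y axis) from P0 to P7 (left) and from P7 to P56 (right) by list (x axis), filled where the adjusted p was under 0.05, with bars at list medians. The 5 members have medians of −0.29 and −0.70, and the methyl donor genes of 0.70 and −0.10, the latter above 0 under both other scalings.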

How the data were processed

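RNA captured through tagged ribosomes was measured on 15 arrays, 3 at each of 5 ages. The values deposited by the authors are log2 signals per probe set, already normalized. Affymetrix Power Tools is named in the submitters' processing notes, while the algorithm, version and base of the logarithm are not given there. Base 2 was assumed because all values lie between 3.15 and 14.1. No depth or batch is given, so precision is limited by how many arrays there were.

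All 22092 probe sets entered a limma 3.58.1 fit in R 4.3.3, fitting 1 mean for each age without covariates. The 10 pairs of ages were compared with two-sided tests and Benjamini-Hochberg adjustment over all probe sets within each pair, with calls at 0.05. The brightest probe set stood for a gene. Named genes were the 5 members, the 3 protein-coding genes most correlated with each, and up to 4 called genes per pathway list with the largest change from P0 to P56. Members and lists were chosen with earlier results of these data known. The fit was tested on simulated data. Same-numbered arrays of different ages did not deviate together (mean r 0.0017, −0.31 to 0.45), so replicate numbers were not taken to pair arrays. List genes without a probe set of their own symbol were not analysed here. Figures used matplotlib 3.10.9 in Python 3.11.15.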

Additional observations from a re-analysis of the deposited data

How the results depend on the processing

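The 50 changes of the 5 genes (10 pairs of ages) were recomputed under 22 alternatives, 15 of which left out an array. Of 1080 recomputed changes, 1039 kept sign and call. With array medians set to 0, the P0 to P56 change of Dnmt3b was −0.023 and lost its call, and 5 in place of 3 genes were called between P7 and P56 (Uhrf2 and Dnmt3b higher, Dnmt3b from −0.06 to 0.20, and also called higher from P15, 0.26, and from P21, 0.28). Signs also turned there for Dnmt3a (−0.0116) and Dnmt3b (−0.018) from P15 to P21 and for Uhrf1 (0.14) and Uhrf2 (0.12) from P21 to P56. Under quantile normalization, Uhrf2 turned to 0.18 from P21 to P56 with a call (without replicate 3 of P56 it was −0.20, also called), and Dnmt3a to −0.0068 from P15 to P21. With array weights, that Dnmt3a change was −0.00170. The dimmest 50% of probe sets included Dnmt3b and Uhrf1, and without them 3 of 3 genes tested remained called for P56 against P0 and across ages. With the replicate number as a block, no call of a member changed (Dnmt1 from P0 to P56 −1.53, adjusted p 4.42e-11). Leaving out each array in turn, the counts of genes called were 5 for P56 against P0 and across ages, 3 to 4 for P56 against P7, 3 to 4 for P15 against P7, 2 for P21 against P15, 2 to 3 for P56 against P21 and 3 for P7 against P0. Sign turns were limited to uncalled changes, with ranges of −0.062 to 0.10 (Dnmt3a, P15 to P21), −0.051 to 0.060 (Dnmt3b, P15 to P21), −0.0087 to 0.10 (Dnmt3b, P15 to P56), −0.0013 to 0.12 (Uhrf1, P0 to P7) and −0.16 to 0.0029 (Uhrf1, P21 to P56). The 15 most similar genes kept r of 0.83 or more under both scalings. Signal over background limits Uhrf1 after P7 and Dnmt3b at all ages.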
